A study of Mus musculus with 4 samples.

Results

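Conventional CD4 T cells of mouse liver were described in 4 single-cell RNA libraries. They were selected on their own counts, as the barcodes with at least 2 UMIs summed over Cd3d, Cd3e and Cd3g, which encode subunits of the T cell receptor complex, and at least 1 UMI of Cd4, the coreceptor for MHC class II, with 0 UMIs of Foxp3, Cd8a, Cd8b1, Trdc, Cd79a and C1qa. A UMI is a molecular tag that marks 1 captured RNA molecule. The rule took 249 of the 28199 barcodes that passed minima of 300 genes and 500 UMIs and a limit of 30% for mitochondrial UMIs. By library these were 83 in HCC, 39 in high-AFP, 56 in low-AFP and 71 in control.

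Each group was 1 library from C57BL/6 mice, and how many animals went into it is not given in the sources used here. The HCC library was made from a cell suspension of the tumour region (HCC, hepatocellular carcinoma), and its title names no diet. The low-AFP library came from liver of mice on CD-HFD. For the high-AFP library the title names the control diet whereas the deposited file is named for CD-HFD, so the library is called here by its AFP label only; AFP is alpha-fetoprotein, a serum marker of liver cancer. The control library came from liver of mice on the control diet. The titles give an age of 15 months and the age field 17 months. Parenchymal cells purified on Percoll and live-sorted non-parenchymal cells were mixed in equal parts before loading of the liver libraries, so a share of all barcodes is set in part by that mixing. With 1 library per group, a difference between libraries has no replicate check, and none was tested.

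CD4 T cells recognise peptides on MHC class II and act mainly through secreted cytokines and through CD40 ligand on their surface. Naive and central memory cells circulate between blood and lymph nodes with the help of Ccr7 and S1pr1, under the transcription factors Klf2 and Tcf7. Effector and tissue-resident cells carry receptors such as Cxcr6, which holds lymphocytes in the liver sinusoids. Mouse liver is also rich in natural killer T (NKT) cells, many of which carry CD4, depend on the factor Zbtb16 and, in C57BL/6 mice, express the receptor encoded by Klrb1c. The rule does not separate NKT cells from other CD4 cells.

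The label was checked against markers that the rule did not use. At least 1 UMI of the T cell receptor genes Trac, Trbc1 or Trbc2 was found in 82 of 83 members in HCC, 39 of 39 in high-AFP, 56 of 56 in low-AFP and 71 of 71 in control. Background Cd4 was low: among B cells, which should lack it, a Cd4 UMI was found in 2 of 689 barcodes in HCC, 1 of 312 in high-AFP, 0 of 281 in low-AFP and 1 of 216 in control. Among Cd8-positive T cells the share was 1.99% in HCC, 1.73% in high-AFP, 4.20% in low-AFP and 2.12% in control. B cells had median depths of 3851, 2661.5, 3300 and 3173 UMIs in HCC, high-AFP, low-AFP and control, and the members 4104, 3113, 3653 and 3833. Many members stood at the threshold: exactly 1 Cd4 UMI was found in 51 of the 83 members in HCC, 24 of 39 in high-AFP, 25 of 56 in low-AFP and 47 of 71 in control. Exactly 2 Cd3 UMIs were found in 3, 3, 2 and 2 members of these libraries, and just outside the rule, with 1 Cd3 UMI and all else met, lay 4, 2, 3 and 0 barcodes.

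Some members carried RNA of other lineages. A barcode was called mixed when it had at least 10 UMIs of MHC class II genes, 5 of Tyrobp plus Fcer1g, 10 of endothelial markers or 50 of haemoglobin genes, limits chosen after the values were seen. This held for 11 members in HCC, 5 in high-AFP, 9 in low-AFP and 5 in control, with median depths of 13409, 8644, 6031 and 7539 UMIs. The dendritic cell markers summed to 12508 CPM in HCC, 8549 in high-AFP, 6581 in low-AFP and 3610 in control (CPM, counts per 1000000 nuclear-encoded UMIs of the members of a library), and without mixed barcodes to 455, 401, 314 and 216 CPM. Macrophage markers summed to 939 CPM in HCC, 199 in high-AFP, 469 in low-AFP and 57.8 in control, and without mixed barcodes to 145, 110, 56.1 and 24.0 CPM. Platelet and erythroid markers reached 18218 CPM in HCC, where 1 barcode was rich in haemoglobin, and at most 14.2 CPM in the other libraries. Hepatocyte markers stayed after mixed barcodes were left out, at 2280 CPM in HCC, 27536 in high-AFP, 15923 in low-AFP and 24038 in control. The part of these RNAs in the results was not tested, and values without mixed barcodes are given beside the results they move most. Between 84 and 103 of the barcodes of each file recurred in another library, and these held 2 members, both in low-AFP.

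The share of T cells that were conventional CD4 cells was lowest in HCC. They made up 3.24% (95% interval 2.587 to 3.999) of the 2563 barcodes that passed the Cd3 step in HCC, 7.66% (5.505 to 10.3) of 509 in high-AFP, 13.5% (10.4 to 17.2) of 415 in low-AFP and 15.2% (12.1 to 18.8) of 466 in control. Intervals on shares are exact binomial and those on CPM exact Poisson, and both cover counting error only. The HCC interval lay below the other 3, the limits of high-AFP and low-AFP nearly met, and those of low-AFP and control overlapped. With mixed barcodes left out of the members only, the shares were 2.81% in HCC, 6.68% in high-AFP, 11.3% in low-AFP and 14.2% in control. The barcodes that passed the Cd3 step still held mixed ones there, among them 58 of 177 CD8 T cells (32.8%) in control. These shares therefore do not show how the order stands with mixed barcodes left out of both. When at least 2 Cd4 UMIs were required the shares were 1.25% in HCC, 2.95% in high-AFP, 7.47% in low-AFP and 5.15% in control, so HCC remained lowest while low-AFP then stood above control.

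The CD8 share ran in the opposite order. CD8 T cells, with a Cd8a or Cd8b1 UMI and none of Cd4, Foxp3 or Trdc, made up 81.9% of Cd3-gated barcodes in HCC, 66.2% in high-AFP, 59.5% in low-AFP and 38.0% in control. Barcodes with no UMI of either coreceptor were 11.7% in HCC, 23.0% in high-AFP, 21.0% in low-AFP and 42.9% in control, and these can include CD4 cells whose Cd4 RNA was not captured. Of all kept barcodes, conventional CD4 cells were 1.04% in HCC, 0.460% in high-AFP, 1.04% in low-AFP and 1.12% in control. Over that wider denominator HCC did not stand apart, and high-AFP was lowest. Foxp3-positive regulatory T cells numbered 14 in HCC, 7 in high-AFP, 9 in low-AFP and 6 in control, which is 14.4%, 15.2%, 13.8% and 7.79% of the regulatory and conventional cells together. A test of the 2 kinds was not run, since no library held 20 regulatory cells, the minimum set for it.

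**Figure D1:**
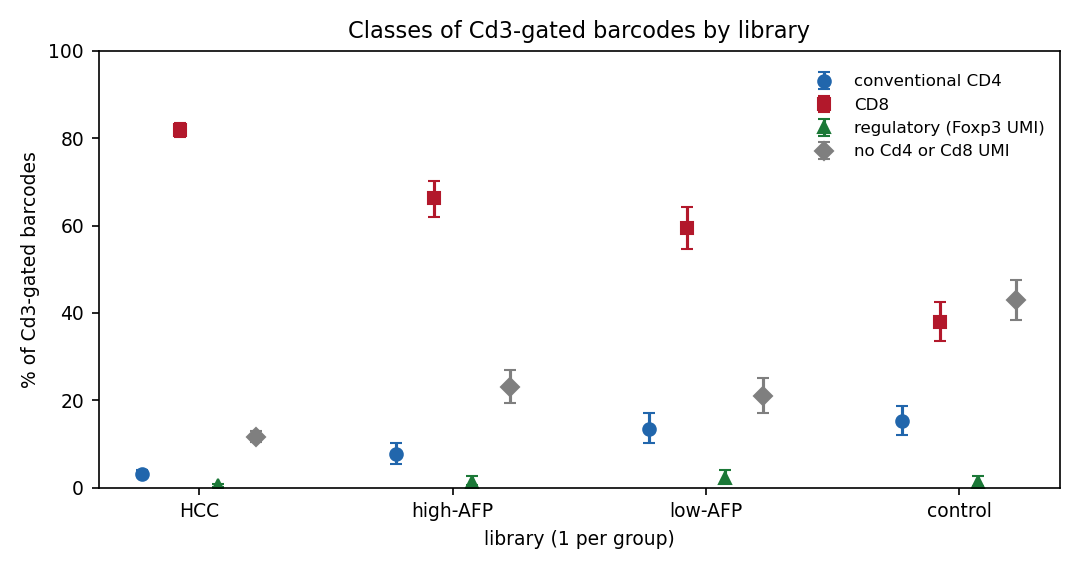
Share of Cd3-gated barcodes in percent (vertical axis) in 4 classes of T cell, by library, with exact 95% binomial intervals. Conventional CD4 cells were 3.24% in HCC and between 7.66% and 15.2% in the other 3 libraries, while CD8 cells were 81.9% in HCC and 38.0% in control.

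The members of every library fell into cells with much and cells with little Ccl5, the chemokine (RANTES) of cytotoxic and effector T cells. Cells with at least 5 Ccl5 UMIs numbered 41 of 83 in HCC, 18 of 39 in high-AFP, 24 of 56 in low-AFP and 44 of 71 in control, or 49.4%, 46.2%, 42.9% and 62.0%. Without mixed barcodes these shares were 47.2% in HCC, 44.1% in high-AFP, 48.9% in low-AFP and 63.6% in control. The split was chosen after the values were seen, and what follows from it is a description. Among members that were not mixed, the Ccl5-high cells had medians of 47, 33, 29 and 15 UMIs in HCC, high-AFP, low-AFP and control, and the Ccl5-low cells at most 3, 1, 2 and 4. Few cells lay between: 1 member in HCC, 0 in high-AFP, 0 in low-AFP and 6 in control had 3 to 7 UMIs. Summed over all members, Ccl5 had 9540 CPM in HCC, 6134 in high-AFP, 3765 in low-AFP and 2821 in control. With a limit of 10 UMIs the shares were 45.8% in HCC, 43.6% in high-AFP, 41.1% in low-AFP and 45.1% in control, so control was then no longer the largest. Of CD8 T cells, 97.6% in HCC, 97.3% in high-AFP, 96.4% in low-AFP and 92.7% in control had at least 5 Ccl5 UMIs, against 7 of 689, 2 of 312, 4 of 281 and 0 of 216 B cells.

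**Figure D2:**
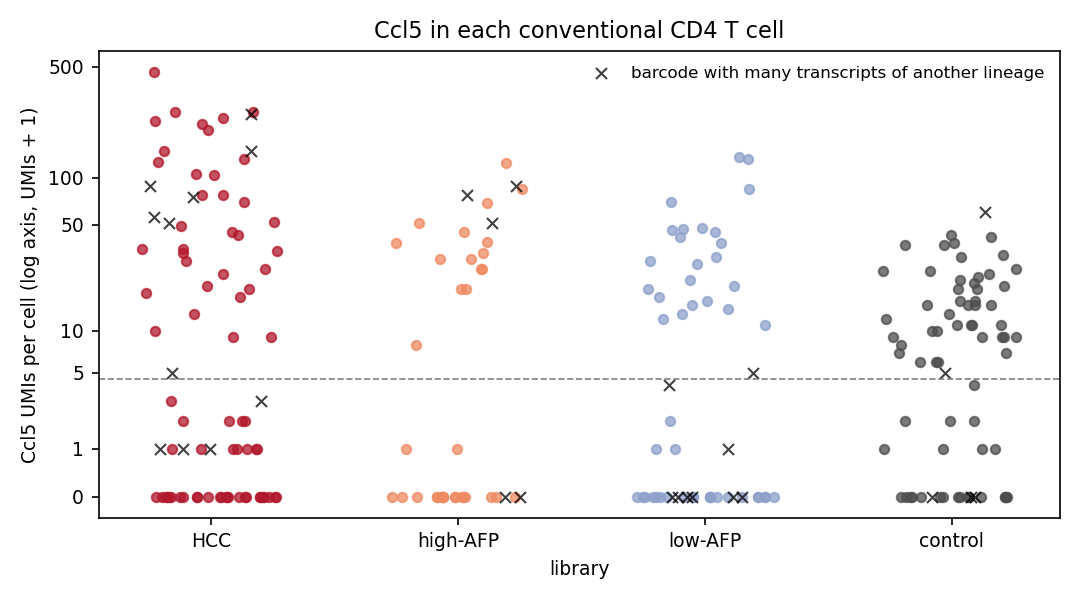
Ccl5 UMIs per cell (vertical log axis, UMIs plus 1) for each member, by library, with mixed barcodes as crosses and the dashed line between 4 and 5 UMIs. In each library the cells form a group near 0 and a group above the line, with medians in the upper group of 47, 33, 29 and 15 UMIs in HCC, high-AFP, low-AFP and control when mixed barcodes are left out.

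A small set of genes separated the 2 kinds in every library. Here and below, the kinds were compared without mixed barcodes. That left 34, 15, 23 and 42 Ccl5-high cells and 38, 19, 24 and 24 Ccl5-low cells in HCC, high-AFP, low-AFP and control. Of 2319 genes with enough counts in all 4 libraries, 13 (0.561%), with Ccl5 itself, which defines the split, among them, stood 2-fold or more higher in Ccl5-high cells in all 4, and 14 (0.604%) stood lower by as much. Of the 7 measured genes of the cytotoxic list, 5 were among the 13, Ccl5 included, and 0 among the 14. The higher genes included Nkg7, a protein of cytotoxic granules, at 2402, 1948, 1836 and 988 CPM in Ccl5-high cells of HCC, high-AFP, low-AFP and control, against 132, 96, 169 and 399 CPM in Ccl5-low cells. In Ccl5-high cells Gzmk, a granzyme, had 616 CPM in HCC, 377 in high-AFP, 276 in low-AFP and 51.7 in control, against 41.8 CPM in Ccl5-low cells of HCC and no UMI in those of the others. In Ccl5-high cells Gzmb, another granzyme, had 494 CPM in HCC, 188 in high-AFP, 267 in low-AFP and 252 in control, against 27.9, 0, 0 and 21 CPM in the Ccl5-low cells. Both granzymes were thus highest in the Ccl5-high cells of HCC, but over all members 1 cell held 46.7% of the Gzmb UMIs in HCC, 47.6% in high-AFP, 81.5% in low-AFP and 13.95% in control. Runx3, a factor of cytotoxic T cells, Ifng, the cytokine interferon gamma, Ctsw, a protease of cytotoxic cells, and Itga1, an integrin subunit that binds collagen, were also among the 13.

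Of the 6 measured genes of the naive list, 2 were among the 14 that stood higher in Ccl5-low cells, S1pr1 and Tcf7, and 0 among the 13. S1pr1, the receptor that lets T cells leave tissue, had 68.4, 105, 79 and 0 CPM in Ccl5-high cells of HCC, high-AFP, low-AFP and control, against 328, 461, 260 and 252 CPM in Ccl5-low cells. In Ccl5-high cells Tcf7, a factor of naive and memory cells, had 83.6 CPM in HCC, 62.8 in high-AFP, 9.87 in low-AFP and 136 in control, against 307, 403, 260 and 325 CPM in the Ccl5-low cells. In Ccl5-high cells Slamf6, a surface receptor of less differentiated T cells, had 76 CPM in HCC, 126 in high-AFP, 29.6 in low-AFP and 12.9 in control, against 509, 768, 480 and 399 CPM in the Ccl5-low cells. Tnfsf8, the CD30 ligand of helper cells, and Nrp1, Capg and Il6ra were also among the 14. Ccr7 had 1 UMI in the Ccl5-high cells of HCC and none in those of high-AFP, low-AFP or control, against 14, 3, 3 and 11 UMIs in the Ccl5-low cells.

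Other genes set the kinds apart in some libraries only. The resident-cell receptor Cxcr6 had 388, 230, 671 and 1027 CPM in Ccl5-high cells of HCC, high-AFP, low-AFP and control, against 293, 134, 156 and 336 CPM in Ccl5-low cells. In Ccl5-high cells Xcl1, a chemokine that attracts dendritic cells, had 60.8 CPM in HCC, 83.8 in high-AFP, 622 in low-AFP and 613 in control, against 76.7, 0, 13 and 241 CPM in the Ccl5-low cells. Its level in the Ccl5-high cells of HCC and high-AFP was thus below that of low-AFP and control. In Ccl5-high cells Pdcd1, the inhibitory receptor PD-1, had 152 CPM in HCC, 20.9 in high-AFP, 207 in low-AFP and 0 in control, against 34.9, 19.2, 130 and 73.4 CPM in the Ccl5-low cells. In Ccl5-high cells Ikzf2, a factor also found in regulatory T cells, had 266 CPM in HCC, 251 in high-AFP, 138 in low-AFP and 77.5 in control, against 516, 864, 701 and 367 CPM in the Ccl5-low cells.

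**Figure D3:**
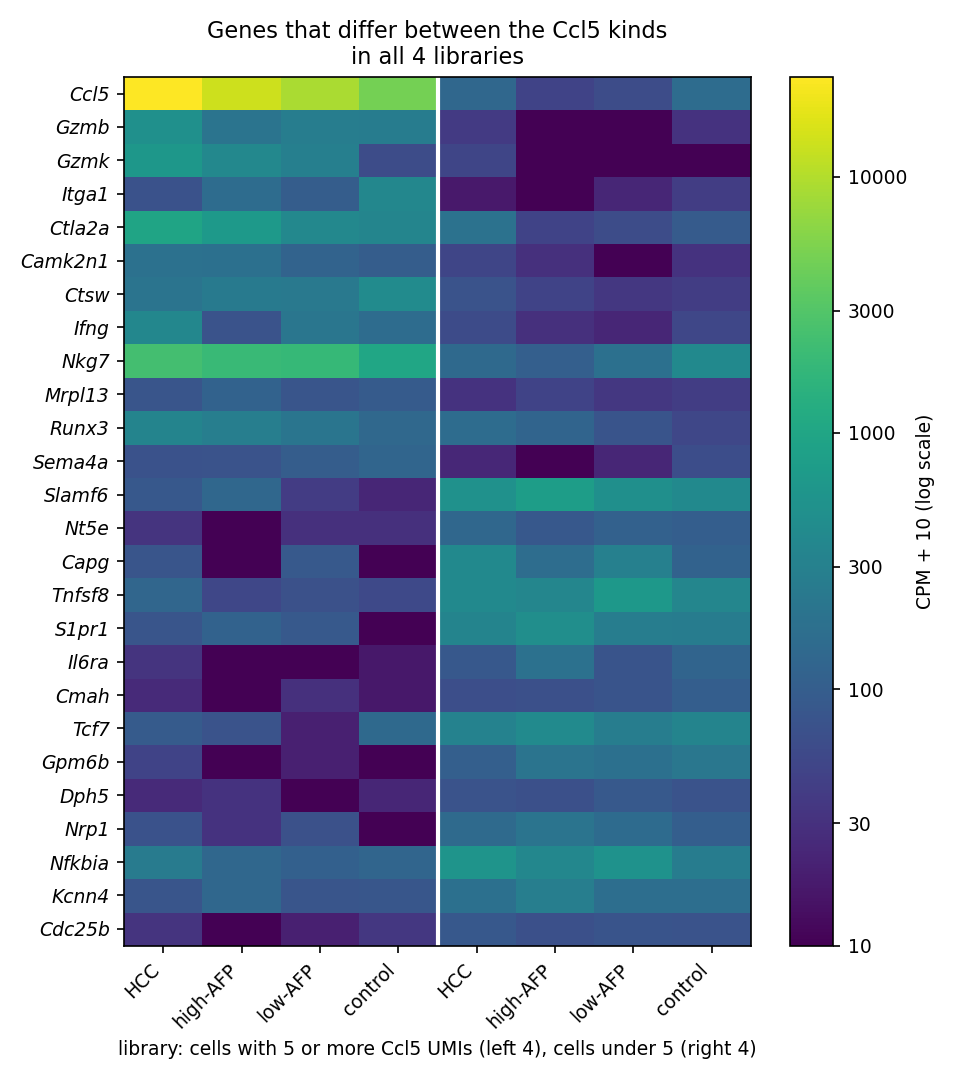
CPM (colour, log scale after adding 10 CPM) of 12 genes, with Ccl5 itself among them, that were higher and the 14 that were lower in Ccl5-high cells in all 4 libraries, 1 row per gene. The left 4 columns are Ccl5-high cells and the right 4 Ccl5-low cells of HCC, high-AFP, low-AFP and control, without mixed barcodes. The genes were chosen for this contrast, so the picture is a description.

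Levels over all members were then compared between libraries as log2 folds after adding 10 CPM, over genes with at least 50 CPM in either library. Against control, 185 of 3686 genes (5.02%) were higher by 2-fold or more in HCC and 382 (10.4%) were lower. In high-AFP, 227 of 3765 (6.03%) were higher and 283 (7.52%) lower than in control. In low-AFP, 167 of 3787 (4.41%) were higher and 172 (4.54%) lower. These 3 comparisons share the control library and are not independent. The shares over all genes are the background for the counts of list members below. They include hepatocyte RNA: of the measured hepatocyte markers 13 of 13 were lower in HCC than in control, and 14 of 14 lower than in high-AFP. The part of that RNA in these shares was not tested. HCC stood against high-AFP with 256 of 3605 genes (7.1%) higher and 440 (12.2%) lower, and high-AFP against low-AFP with 212 of 3713 (5.71%) higher and 225 (6.06%) lower. Without mixed barcodes 5.18% were higher and 10% lower in HCC with control, 8.67% and 9.08% in high-AFP with control, and 4.63% and 6.21% in low-AFP with control. The same shares were 9.44% and 14.2% in HCC with high-AFP and 10.5% and 9.13% in high-AFP with low-AFP. The split depended on scaling: with median-of-ratios size factors the median of all genes moved up by 0.21 in HCC with control and by 0.17 in HCC with high-AFP on the log2 scale, and the counts became 289 higher and 297 lower of 3724 genes, and 354 higher and 372 lower of 3763.

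The chemokines Ccl3 and Ccl4, made by activated effector cells, stood higher in HCC than in control. Ccl4 had 348 CPM in HCC (143 UMIs), 14.2 in high-AFP, 401 in low-AFP and 13.6 in control (4 UMIs), a log2 fold of 3.92 for HCC over control. The UMIs came from 30 cells in HCC but from 4 in low-AFP, where 1 cell held 83.2% of them, so the low-AFP level rests on that cell. Ccl3 had 117 CPM in HCC (48 UMIs), 14.2 in high-AFP, 39.7 in low-AFP (80% of it in 1 cell) and no UMI in control, so that HCC was at least 11.4-fold higher than control with the floor of 3 UMIs per library. Gzmk had 241 CPM in HCC, 150 in high-AFP, 119 in low-AFP and 30.6 in control, and stood higher than control on the log2 scale by 2.63 in HCC, 1.97 in high-AFP and 1.67 in low-AFP. It was the only gene named by rule as higher than control in all 3 libraries. Of the 13 measured genes of the cytotoxic list, 5 were higher and 2 lower in HCC than in control, with a median log2 fold of 0.94 beside -0.14 over all genes. The lower ones were Xcl1, at 63.3, 78.4, 254 and 402 CPM in HCC, high-AFP, low-AFP and control, and Ctsw, at 90.0, 128, 103 and 252 CPM. In high-AFP 3 of 10 measured cytotoxic genes were higher and 3 lower than in control, and in low-AFP 2 of 11 were higher and 4 lower. Without mixed barcodes 2 of 10 were higher and 5 lower in high-AFP, where the median log2 fold was -0.90 in place of -0.23. In low-AFP 3 of 12 were then higher and 3 lower, with a median of 0.22 in place of -0.42.

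Immediate early genes, transcribed within minutes of stimulation or of tissue dissociation, were higher in HCC. Of 19 measured genes 10 were at least 2-fold higher than in control and 0 lower, with a median log2 fold of 1.07, and without mixed barcodes 10 of 17 were higher. Junb, a subunit of the AP-1 factor, had 1888 CPM in HCC, 577 in high-AFP, 489 in low-AFP and 538 in control. Dusp1, a phosphatase that ends MAP kinase signals, had 630 CPM in HCC, 185 in high-AFP, 175 in low-AFP and 218 in control. Nr4a2, a nuclear receptor induced by T cell receptor signals, had 187 CPM in HCC (77 UMIs), 14.2 in high-AFP, 35.7 in low-AFP and 10.2 in control (3 UMIs). HCC was thus above the other 3 libraries for each, with a ratio of 18.4 for Nr4a2 over control (95% interval 6.05 to 90.9). With all members, no gene of the list was 2-fold higher than control in high-AFP (0 of 15, with 2 lower) or low-AFP (0 of 15, with 0 lower). In high-AFP, 3 of 17 were higher when the total left out ribosomal protein genes, and 1 of 15 with median-of-ratios size factors. Without mixed barcodes 1 of 15 was higher in high-AFP and 2 of 16 in low-AFP, with 0 lower in each. Junb was also higher in other cells of the HCC library, with 1420 CPM in CD8 T cells and 1188 CPM in B cells of HCC, against 493 and 283 CPM in those of control.

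Inhibitory receptors and their partners formed the next group. In HCC 4 of 7 measured genes of the checkpoint list were higher than in control and 1 lower (median 1.06). The 4 were Ctla4, Lag3, Tox and Nr4a2, the last of which is also counted above with the immediate early genes. In low-AFP 3 of 7 were higher and 1 lower (median 0.73). In high-AFP 1 of 4 was higher and 2 were lower. Ctla4, which competes with CD28 for its ligands, had 231 CPM in HCC, 128 in high-AFP, 131 in low-AFP and 47.6 in control. Without mixed barcodes its levels were 331 CPM in HCC, 150 in high-AFP, 157 in low-AFP and 56 in control, so the order held. Lag3, an inhibitory receptor for MHC class II, had 99.8 CPM in HCC, 35.6 in high-AFP, 99.3 in low-AFP and 37.4 in control, and Tox, a factor of chronically stimulated T cells, 231, 150, 171 and 105 CPM. The lower gene was Cd160, a receptor of cytotoxic and innate-like lymphocytes, with 21.9 CPM in HCC, 7.12 in high-AFP, 35.7 in low-AFP and 129 in control. Pdcd1 had 63.3 CPM in HCC, 14.2 in high-AFP, 135 in low-AFP and 27.2 in control, and Havcr2, encoding TIM-3, 41.4, 21.4 and 31.8 CPM in the first 3 and no UMI in control. Cells with a Pdcd1 UMI numbered 16 in HCC, 2 in high-AFP, 17 in low-AFP and 4 in control, too few in every library for a test of Pdcd1-positive against other members.

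Shares of cells with a UMI were compared after each cell was thinned to 2000 UMIs, which left 82 cells in HCC, 39 in high-AFP, 55 in low-AFP and 69 in control, and left out 1, 0, 1 and 2. Of thinned cells, Ctla4 was found in 31.7% in HCC, 23.1% in high-AFP, 23.6% in low-AFP and 11.6% in control, and unthinned in 47.0%, 28.2%, 35.7% and 14.1%. Among B cells its thinned shares were between 0.490% and 1.21%. Of thinned cells, Pdcd1 was found in 10.98% in HCC, 5.13% in high-AFP, 23.6% in low-AFP and 2.90% in control, and unthinned in 19.3%, 5.13%, 30.4% and 5.63%. Among B cells Pdcd1 was found in at most 1 thinned cell per library. At equal depth, HCC was thus highest and control lowest for Ctla4, and low-AFP was highest for Pdcd1, while high-AFP and control each had 2 thinned cells with a Pdcd1 UMI. The intervals of HCC, high-AFP and low-AFP overlapped for Ctla4, and those of HCC and low-AFP for Pdcd1. Of thinned cells, Cxcr6 was found in 29.3% in HCC, 28.2% in high-AFP, 40% in low-AFP and 58.0% in control, and 48.2%, 30.8%, 48.2% and 66.2% unthinned, with at most 0.772% of thinned B cells. Of thinned cells, Cd40lg, which encodes CD40 ligand, was found in 12.2% in HCC, 12.8% in high-AFP, 10.9% in low-AFP and 34.8% in control, and 20.5%, 17.9%, 16.1% and 45.1% unthinned, with no thinned B cell in any library.

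Several genes of residency and of NKT cells were highest in control. Cxcr6 had 243 CPM in HCC, 164 in high-AFP, 338 in low-AFP and 670 in control. Itga1 had 31.6 CPM in HCC, 114 in high-AFP, 87.4 in low-AFP and 259 in control, and P2rx7, an ATP-gated channel of resident T cells, 14.6, 14.2, 15.9 and 122 CPM. Control was thus highest for each, and HCC stood lowest for Itga1. On the residency list as a whole HCC had 3 of 10 measured genes higher than control and 3 lower, the higher being Cd69 at 280 CPM in HCC, 142 in high-AFP, 103 in low-AFP and 105 in control, Runx3 at 200, 171, 119 and 91.9 CPM and Prdm1 at 68.1, 35.6, 27.8 and 17.0 CPM. High-AFP had 0 of 8 higher and 3 lower, and low-AFP 0 of 9 higher and 2 lower.

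The receptor Klrb1c (NK1.1) had 15 UMIs in control and none in HCC, high-AFP or low-AFP, where the floor of 3 UMIs equals 7.30, 21.4 and 11.9 CPM. Zbtb16, the NKT cell factor, had 0, 1, 0 and 9 UMIs in HCC, high-AFP, low-AFP and control. Members with a UMI of Klrb1c or Zbtb16 numbered 0 in HCC, 1 in high-AFP, 0 in low-AFP and 15 in control, and the 15 were 21.1% (12.3 to 32.4) of control members, while 1.39% of control B cells carried either. Klrc2, an NK cell receptor, had 5 UMIs in HCC, 2 in high-AFP, 0 in low-AFP and 18 in control, and the Ly49 receptor genes Klra1, Klra7 and Klra9 had 7, 6 and 8 UMIs in control and none elsewhere. Il2rb, the receptor subunit for IL-2 and IL-15, had 212 CPM in HCC, 264 in high-AFP, 342 in low-AFP and 650 in control. Of the NKT and innate-like list, 4 of 8 measured genes were lower in HCC than in control, 5 of 8 in high-AFP and 4 of 8 in low-AFP. The 2 higher ones in HCC were Tyrobp and Fcer1g, signalling adaptors shared with myeloid cells, and both serve to define mixed barcodes. Without these barcodes 5 of 7 were lower. Trav11, the variable segment of invariant NKT cells, had 1 UMI, in control. Constant genes of the gamma chain, which alpha-beta T cells can also transcribe, were found in 6 members in HCC, 2 in high-AFP, 4 in low-AFP and 18 in control; their part in the control values was not tested.

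**Figure D4:**
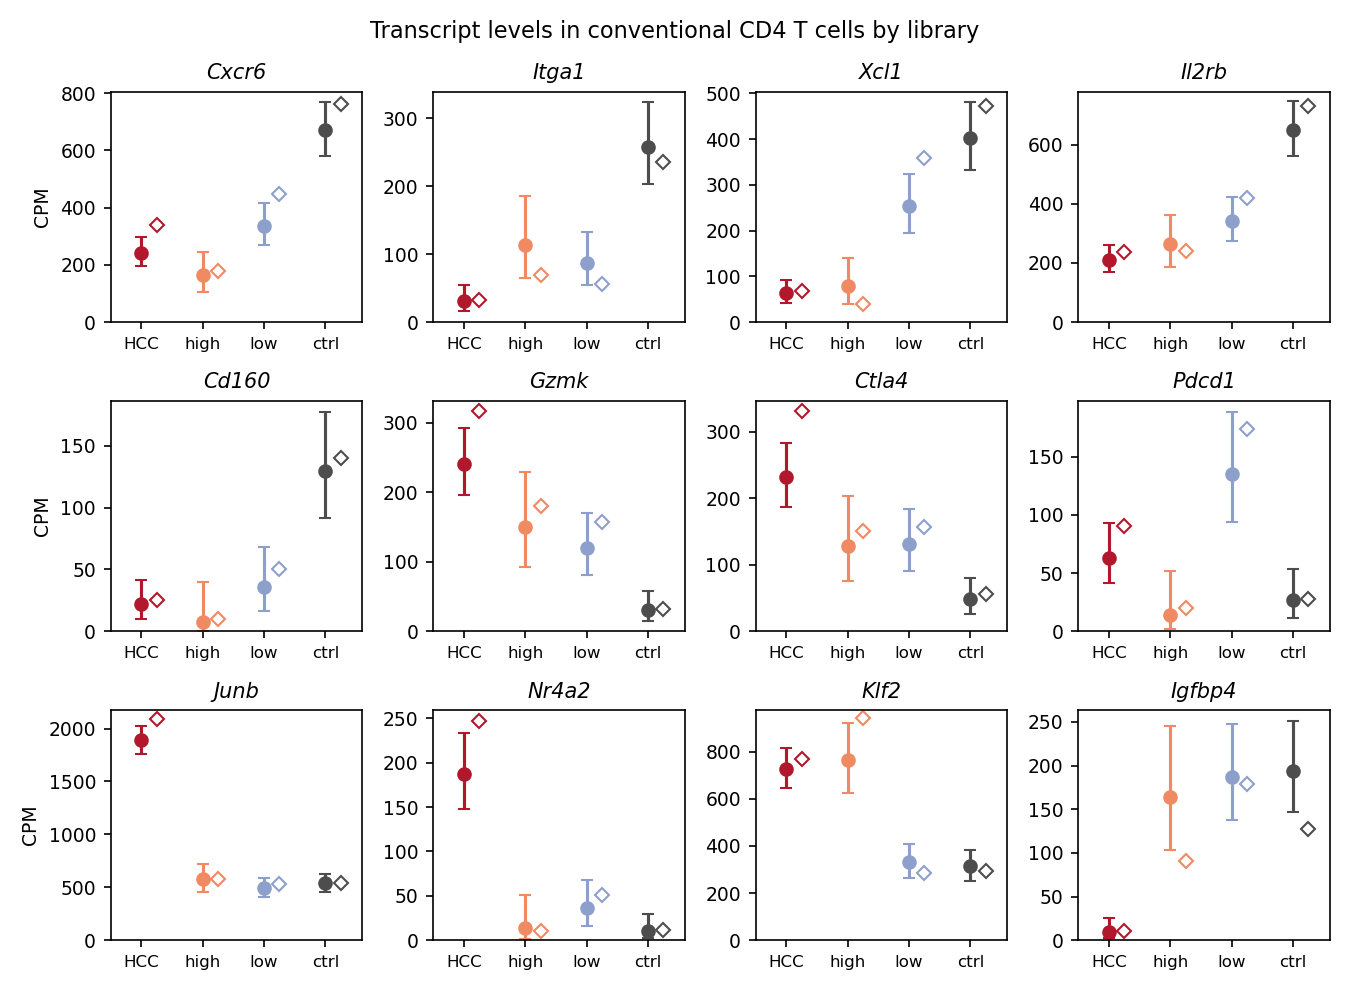
CPM of 12 genes in the members of each library (vertical axes from 0), with exact 95% Poisson intervals as bars and the value without mixed barcodes as an open diamond. HCC stood highest for Gzmk, Ctla4, Junb and Nr4a2, and control for Cxcr6, Itga1, Xcl1, Il2rb and Cd160.

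Genes of recirculation and naive cells showed no common direction. Klf2 had 727 CPM in HCC, 762 in high-AFP, 330 in low-AFP and 313 in control, so that HCC and high-AFP stood together above low-AFP and control. Satb1, a chromatin organiser of T cells, had 82.7 CPM in HCC, 57.0 in high-AFP, 23.8 in low-AFP and 299 in control, and was 12.6-fold lower in low-AFP than in control (95% interval 5.55 to 35.2). Igfbp4, a gene of naive T cells, had 9.73 CPM in HCC and 164, 187 and 194 CPM in high-AFP, low-AFP and control, and without mixed barcodes 10.9, 90.2, 179 and 128 CPM. The naming rule, which sets limits on cells, on the share of 1 cell and on hepatocyte CPM, did not take Igfbp4 for HCC with control. Hepatocyte markers over the members were also lower in HCC (1757 CPM) than in control (21610 CPM), and the part of that RNA was not tested. Gpr183, an oxysterol receptor that positions lymphocytes, had 255 CPM in HCC, 157 in high-AFP, 47.7 in low-AFP and 37.4 in control. Of the naive list 1 of 8 measured genes was higher and 2 lower in HCC than in control, and 3 of 9 were higher and 1 lower in high-AFP.

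On the list of activation and costimulation genes, HCC had 0 of 12 measured genes higher than control and 2 lower, high-AFP 0 of 12 and 2, and low-AFP 2 of 14 and 2. With all members the 2 lower genes were Cd40lg and Cd226 in each: Cd40lg had 58.4 CPM in HCC, 57.0 in high-AFP, 39.7 in low-AFP and 150 in control, and Cd226 had 65.7, 35.6, 51.6 and 228 CPM. Without mixed barcodes 1 of 12 was higher and 1 lower in HCC, 1 of 13 and 2 in high-AFP, and 2 of 14 and 2 in low-AFP. With median-of-ratios size factors 1 of 12 was higher and 2 lower in HCC. Cd28, the main costimulatory receptor, had 574 CPM in HCC, 285 in high-AFP, 282 in low-AFP and 303 in control, so that HCC stood highest, by just under 2-fold over control. Tnfrsf9, the receptor 4-1BB of recently activated cells, had 21.9 CPM in HCC, no UMI in high-AFP, 103 CPM in low-AFP, with 57.7% of it in 1 cell, and 30.6 CPM in control.

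Genes of regulatory T cells other than Foxp3 were partly higher than in control, with 3 of 7 measured genes in HCC, 2 of 6 in high-AFP and 3 of 6 in low-AFP, and 0 lower in each. In HCC these were Ctla4, Il10 and Capg. Capg had 192 CPM in HCC, 57.0 in high-AFP, 139 in low-AFP and 34.0 in control, and Ikzf2 302, 442, 286 and 174 CPM. A Foxp3 UMI can be missed in a regulatory cell, and the part of such cells in these values was not tested. When members with an Ikzf2 UMI or over 1 Il2ra UMI were left out, the share of Cd3-gated barcodes became 1.91%, 3.73%, 8.19% and 11.2% in HCC, high-AFP, low-AFP and control.

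Of Tbx21, Gata3 and Bcl6, regulators of helper lineages, Gata3 stood highest in every library and Bcl6 was sparse. Tbx21, the Th1 regulator, had 38.9 CPM in HCC, 21.4 in high-AFP, 27.8 in low-AFP and 74.9 in control, and Gata3, the Th2 regulator, 92.5, 185, 135 and 133 CPM. Bcl6, of follicular helper cells, had 4 UMIs in HCC, 1 in high-AFP, 7 in low-AFP and 4 in control. For Gata3 the intervals of all 4 libraries overlapped. Ifng had 136 CPM in HCC, 42.7 in high-AFP, 95.3 in low-AFP and 102 in control, and Tnf 105, 14.2, 91.3 and 17.0 CPM, so Tnf stood high in HCC and low-AFP, where 1 cell held 44.2% and 60.9% of its UMIs. Il4 had 11 UMIs in 8 control cells and none in the other 3 libraries, and Il5, Il13 and Il22 had none in any. Il17a had 10 UMIs in HCC, 70.0% of them in 1 cell, and none elsewhere, while Ccr6, the homing receptor of Th17 cells, had 21 UMIs in 8 HCC cells, 1 in high-AFP and none in low-AFP or control. Il10 had 22 UMIs in 7 HCC cells and 11 in 3 low-AFP cells, and none in high-AFP or control.

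Of the other genes that the naming rule took, several stood lower once mixed barcodes were left out. Tyrobp stood 4.17 and Fcer1g 2.81 higher in HCC than in control on the log2 scale over all members; since their UMIs define mixed barcodes, leaving these out lowers both by construction. Ciita, the regulator of MHC class II genes, which is not part of that definition, stood 2.23 higher with all members and 0.79 without mixed barcodes. Alox5ap, of leukotriene synthesis, stood 4.28 higher in HCC than in high-AFP and 0.79 without mixed barcodes. H2-DMa, which loads peptides on MHC class II, was at 2.70 with all members and at -0.33 without mixed barcodes in that comparison. In low-AFP, Capg, an actin-capping protein, stood 1.76 higher than in control, Tpd52 1.98 and Casp1, the inflammasome protease, 1.67. In high-AFP, Ikzf2 stood 1.30 higher than in control, S1pr1 1.17 and S100a4 1.08, whereas Cd226, an activating receptor, was lower at -2.38, with 35.6 CPM in high-AFP and 228 in control. Between high-AFP and low-AFP only 5 of the 10 leading genes on the higher side passed 2-fold, with Chordc1, a cochaperone, at 1.74 and Klf2 at 1.19. Izumo1r, folate receptor 4 of helper and regulatory cells, was lower in high-AFP than in low-AFP at -1.47.

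Against CD8 T cells, conventional CD4 cells were higher in helper molecules and lower in cytotoxic ones. This comparison was tested, since each of the 4 libraries held both kinds: UMIs were summed per library and kind and fitted with edgeR's quasi-likelihood test, with library as a block and the genes of the rule left out. The CD8 T cells numbered 2099 in HCC, 337 in high-AFP, 247 in low-AFP and 177 in control. Of 6757 genes, 116 (1.72%) were higher and 94 (1.39%) lower in CD4 cells at a Benjamini-Hochberg adjusted p under 0.05. Whether the libraries come from separate animals is not stated. With library as a block, these p-values set the CD4 to CD8 difference against its spread across the 4 libraries, each a different group. The counts were 66 and 55 without the HCC library and 52 and 46 without low-AFP, and 139 and 127 without control. They were 18 and 12 with no library as a block.

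Slamf6 averaged 241 ± 69.6 CPM in CD4 cells and 41.3 ± 13.3 CPM in CD8 cells (SD, n = 4 libraries), a log2 fold of 2.44 (edgeR adjusted p = 4.98e-07). Cd40lg, the signal by which helper cells license B cells and dendritic cells, had 58.4, 57.0, 39.7 and 150 CPM in CD4 cells of HCC, high-AFP, low-AFP and control, against 3.25, 3.09, 1.52 and 9.94 CPM in CD8 cells (log2 fold 4.10, edgeR adjusted p = 9.73e-07). Tnfsf8 averaged 217 ± 68.5 CPM in CD4 cells and 40.2 ± 10.3 CPM in CD8 cells (log2 fold 2.41, edgeR adjusted p = 1.46e-06). All 3 were higher in CD4 cells of every library. Zbtb7b, which encodes the factor ThPOK that sets the CD4 lineage, averaged 50.7 ± 12.1 CPM in CD4 cells and 18.5 ± 6.51 CPM in CD8 cells (log2 fold 1.48, edgeR adjusted p = 0.00676). Of the 14 measured genes of the activation and costimulation list 9 were higher in CD4 cells and 0 lower, among them Icos (1.43) and Tnfrsf4 (1.79), which encodes OX40. On the naive list 3 of 13 were higher and 0 lower: Il7r, the IL-7 receptor, at 1.37, S1pr1 at 1.39 and Tcf7 at 0.93. Gata3 (0.98) and Ccr4 (5.08), a chemokine receptor of Th2 cells, were the 2 measured genes of the Th2 list, and both were higher.

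Of the 16 measured genes of the cytotoxic list, 14 were lower in CD4 cells and 0 higher. Gzma, granzyme A, had 2.43, 7.12, 11.9 and 0 CPM in CD4 cells of HCC, high-AFP, low-AFP and control, against 759, 718, 641 and 972 CPM in CD8 cells (edgeR adjusted p = 5.78e-10). Nkg7 averaged 821 ± 81.5 CPM in CD4 cells and 2918 ± 745 CPM in CD8 cells (log2 fold -1.85, edgeR adjusted p = 6.93e-08). Ccl5 averaged 5565 ± 2994 CPM in CD4 cells and 22539 ± 6603 CPM in CD8 cells (log2 fold -2.16, edgeR adjusted p = 1.5e-07). Gzma was thus close to absent from CD4 cells, whereas Nkg7 and Ccl5 were shared with CD8 cells at lower levels. Prf1, perforin, had 36.5 CPM in HCC, 35.6 in high-AFP, 31.8 in low-AFP and 10.2 in control among CD4 cells, against 168, 120, 169 and 54.7 CPM in CD8 cells. Of the checkpoint list 4 of 11 were lower and 0 higher, namely Lag3 (-1.42), Havcr2 (-1.29), Cd160 (-2.20) and Nr4a2 (-1.70). Pdcd1 (-1.12, edgeR adjusted p = 0.106), Tox (-0.62, edgeR adjusted p = 0.0549) and Ctla4 (0.61, edgeR adjusted p = 0.0865) did not pass, nor did Cxcr6 (-0.52, edgeR adjusted p = 0.121). In the cell cycle list 5 of 12 were lower and 0 higher, including Mki67 (-1.58), a marker of dividing cells. Mixed barcodes were also found among CD8 cells: 133 (6.34%) in HCC, 39 (11.6%) in high-AFP, 17 (6.88%) in low-AFP and 58 (32.8%) in control. Without them in either kind, 117 of 5102 genes tested were higher and 108 lower. Of these, 79 and 74 were among the 116 and 94 called with all barcodes.

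**Figure D5:**
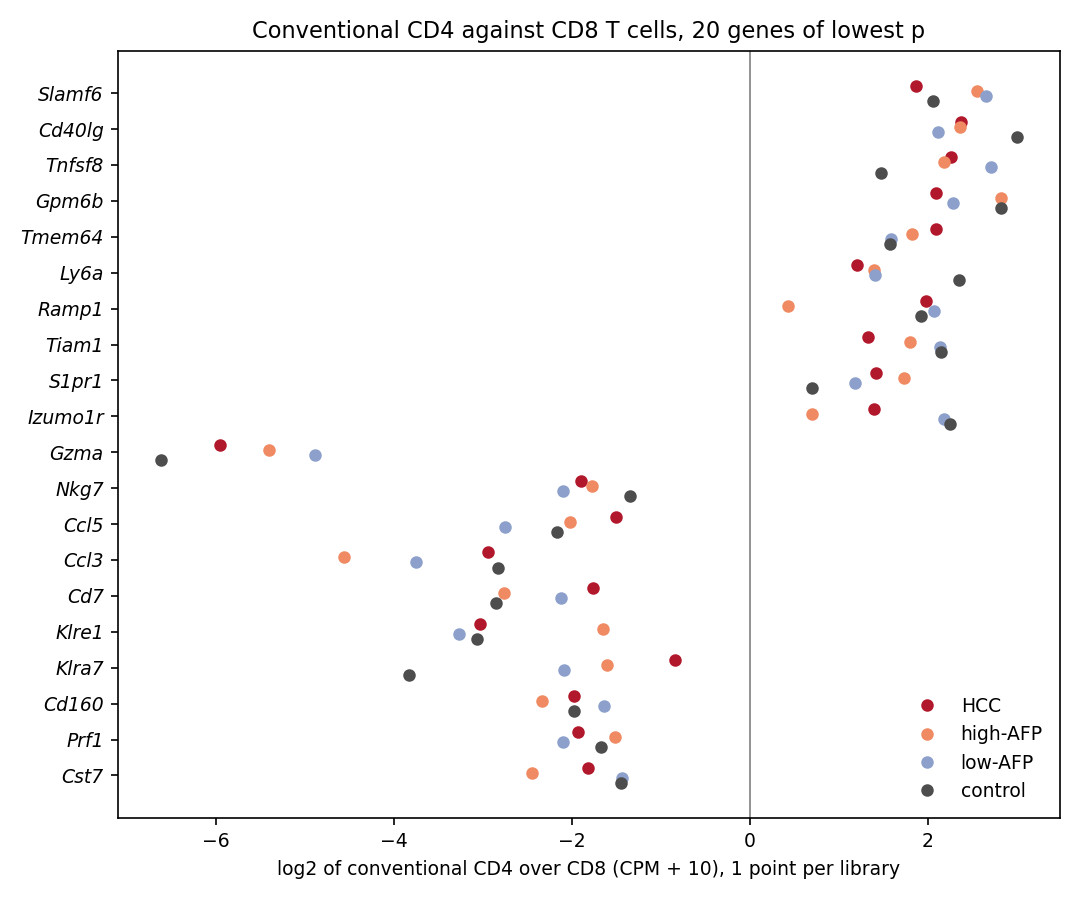
Log2 of conventional CD4 over CD8 T cells after adding 10 CPM (horizontal axis), 1 point per library, for the 10 higher and 10 lower genes of lowest p that the naming rule took. All 4 points of each gene lay on the same side of 0.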

How the data were processed

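Single-cell 3' RNA was measured with a 10x Genomics kit (version 2, per the labels' protocols) in 4 mouse liver libraries, 1 per group. The deposited matrices hold whole-number UMI counts for 31053 genes, made with Cell Ranger 3.0.2, per the file headers. The submitters' processing notes also name R 3.0, Seurat 3 and the mm9 build. No coordinate was used.

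The members, gene lists and rules were chosen with earlier results of these data known, and the mixed-barcode and Ccl5 limits after these values were seen. UMIs of the members were summed per library and divided by nuclear-encoded UMIs (411023 in HCC, 140367 in high-AFP, 251790 in low-AFP and 293892 in control). A gene was counted at 50 CPM in either library and called at a 2-fold difference after adding 10 CPM. A fold against 0 used a floor of 3 UMIs per library, and a ratio to 1 to 3 UMIs has its exact interval. For each of 5 comparisons the rule named the 10 most higher and lower genes with at least 20 UMIs in at least 10 cells, no cell holding over 25%, and 2 times the hepatocyte CPM, without antigen receptor, ribosomal and similar genes. It also named, for the test against CD8 cells, the 10 of lowest p each way, and members of 20 pathway lists with the largest folds. Not all are printed, and some genes are not reported here. List genes outside these were named after their values were seen.

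CD4 and CD8 sums were tested with edgeR 4.0.16 (quasi-likelihood, TMM, library as block, Benjamini-Hochberg) in R 4.3.3, and with DESeq2 1.42.0 as an alternative. The block pairs 2 kinds of cell of the same library. The scripts were tested on simulated data with known folds. Other work used Python 3.11.15, scipy 1.17.1 and scanpy 1.11.5.

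Doublets were kept. Scrublet's automatic threshold marked 0 barcodes in HCC, 5 in high-AFP, 8 in low-AFP and 12 in control, under the 0.5% minimum, so an alternative removed the 513, 575, 230 and 323 barcodes of highest score. Other alternatives changed the cell filters, the scaling, the added CPM, the CPM minimum and the CD4 rule.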

Additional observations from a re-analysis of the deposited data

How the results depend on the processing

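Genes past 2-fold numbered 567 in HCC, 510 in high-AFP and 339 in low-AFP against control, 437 in high-AFP against low-AFP and 696 in HCC against high-AFP. In this order they were 258, 126, 80, 91 and 298 after adding 50 CPM, 1732, 1899, 1283, 1847 and 2158 with no CPM minimum, and 106, 71, 38, 41 and 125 with a minimum of 200 CPM. With a total that left out ribosomal protein genes, high-AFP gave 796 against control and 743 against low-AFP. Barcodes with no UMI of Cd74, H2-Aa, Lyz2, Igkc or Cd79b gave 828 for low-AFP with control, and leaving out mixed barcodes, an alternative chosen after seeing the data, gave 776 for high-AFP with low-AFP and turned H2-DMa to -0.33 in HCC with high-AFP. The cause was not tested. Over all alternatives, values of genes named between libraries stayed past 2-fold in the same direction in 1404 cases, missed 2-fold in 80 and reversed in 1. Part of the 1404 was fixed in advance. A minimum of 1000 UMIs kept the same members, CPM minima do not enter a fold, and adding 1 CPM can only enlarge it. Requiring at least 2 Cd4 UMIs left too few members for any of the 5 comparisons and gave no case.

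The share of Cd3-gated barcodes in HCC, high-AFP, low-AFP and control was 1.25%, 2.95%, 7.47% and 5.15% with at least 2 Cd4 UMIs. It was 1.91% in HCC, 3.73% in high-AFP, 8.19% in low-AFP and 11.2% in control with no Ikzf2 and at most 1 Il2ra UMI, and 0.546%, 4.32%, 7.23% and 9.66% with none of the 5 lineage genes. HCC was lowest under each. Without Klrb1c or Zbtb16 UMIs control was 12.0%. Split at 10 Ccl5 UMIs, a limit also chosen after seeing the data, 45.1% of control members were Ccl5-high, below the 45.8% of HCC. Alternatives that left a library under 30 members gave no value for its comparisons.

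Between CD4 and CD8 cells, the fit with no replicate block called 18 genes higher and 12 lower, against 116 and 94 with library as the block. In the fit with no block 9 named genes lost the call, with Ccl5, Prf1 and Cd160 among them. Under the other alternatives every named gene that was tested kept the call, but Klra7 was not tested without control or without mixed barcodes. No count filter gave 209 and 271, and DESeq2 called 78 higher and 52 lower. Leaving out 1 library at a time gave 52 to 139 higher and 46 to 127 lower. No paired analysis was possible because each group is 1 library, for the comparisons between libraries. High-AFP had the fewest members (39), at the lowest median depth (3113 UMIs).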

Other observations

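Several genes of fatty acid oxidation and oxidant defence were lower in HCC than in high-AFP, whereas glycolysis genes stayed within 2-fold of control. Of 9 measured genes of glycolysis and nutrient transport, none was 2-fold higher or lower than control in HCC, high-AFP or low-AFP. Gapdh, a glycolytic enzyme, had 817 CPM in HCC, 990 in high-AFP, 1350 in low-AFP and 1024 in control. Of 17 genes of fatty acid oxidation and oxidant defence, 3 were lower in HCC, 2 higher in high-AFP and none past 2-fold in low-AFP, each against control. Between HCC and high-AFP 5 of 17 were lower in HCC and 0 higher. Their median log2 fold was -0.60 beside -0.07 over all genes, of which 12.2% were lower. Without mixed barcodes 8 of 17 were lower there, and 6 of 17 in HCC against control. Cat, the enzyme catalase, had 68.1 CPM in HCC, 435 in high-AFP, 175 in low-AFP and 310 in control. It is abundant in hepatocytes, whose markers summed to 1757 CPM in HCC, 21715 in high-AFP, 13134 in low-AFP and 21610 in control over the same members, and the part of that RNA was not tested. Prdx1, a peroxidase, had 311 CPM in HCC, 933 in high-AFP, 492 in low-AFP and 459 in control. The naming rule, which asks for 2 times the hepatocyte CPM among other limits, took neither Cat nor Prdx1 for HCC with high-AFP. The part of hepatocyte RNA was not tested for any gene of this list.

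Interferon-stimulated genes were mixed, with 0 of 14 higher and 3 lower than control in HCC, 1 of 13 and 3 in high-AFP, and 1 of 14 and 1 in low-AFP. Over all genes 5.02% were higher and 10.4% lower than control in HCC, 6.03% and 7.52% in high-AFP, and 4.41% and 4.54% in low-AFP. Between HCC and high-AFP 1 of 14 was higher in HCC and 1 lower, and without mixed barcodes 1 of 13 and 5. Ifi27l2a had 825 CPM in HCC, 1268 in high-AFP, 1116 in low-AFP and 524 in control, while Igtp, a GTPase induced by interferon gamma, had 46.2, 57.0, 63.5 and 167 CPM. Iigp1, another such GTPase, had 12.2 CPM in HCC, 85.5 in high-AFP, 123 in low-AFP and 64.6 in control. Cell cycle genes were sparse: 4 of 6 were lower in HCC than in control, and 2 of 4 without mixed barcodes. Mki67 had 21.9 CPM in HCC, 14.2 in high-AFP, 19.9 in low-AFP and 61.2 in control with all members and 21.8, 0, 22.4 and 27.98 CPM without mixed barcodes. Stmn1, a microtubule regulator of dividing cells, had 26.8 CPM in HCC, 92.6 in high-AFP, 155 in low-AFP and 150 in control. Of the survival genes 0 of 11 were higher and 0 lower than control in HCC, 0 of 12 and 2 in high-AFP, and 0 of 12 and 1 in low-AFP. Gimap3, a GTPase that supports T cell survival, had 513 CPM in HCC, 570 in high-AFP, 516 in low-AFP and 786 in control.

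Of the 16 measured genes of T cell receptor signalling, 0 were higher and 0 lower in HCC, 0 and 2 in high-AFP, and 0 and 1 in low-AFP. Without mixed barcodes 2 of 16 were higher in HCC, and 1 of 16 with median-of-ratios size factors. Of the homing receptors 2 of 14 were higher and 2 lower in HCC, 4 of 14 and 3 in high-AFP, and 1 of 12 and 1 in low-AFP. Without mixed barcodes these were 4 of 15 and 3, 2 of 13 and 3, and 1 of 11 and 1. Of the Th17 genes 2 of 5 were higher in HCC, 2 of 5 in high-AFP and 0 of 4 in low-AFP, and of the T follicular helper genes 0 of 4, 0 of 4 and 1 of 4. Without mixed barcodes the Th17 counts were 1 of 5, 1 of 5 and 0 of 4, and those of T follicular helper genes 1 of 4 in each library. Of the cytokines 2 of 9 were higher and 1 lower in HCC, 0 of 7 and 4 in high-AFP, and 1 of 8 and 1 in low-AFP. All these counts are against control, where over all genes 5.02% were higher and 10.4% lower in HCC. The shares over all genes were 6.03% and 7.52% in high-AFP, and 4.41% and 4.54% in low-AFP.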
